A study of Mus musculus with 2 samples.

Results

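The nuclei described here are 337 Rorb- and Rspo1-rich glutamatergic nuclei of the mouse entorhinal cortex, out of 12918 nuclei in 2 single-nuclei RNA sequencing libraries. They were chosen by expression. A nucleus was first kept as glutamatergic (gated) if it held at least 6000 unique molecular identifiers (UMIs, each marking 1 captured RNA molecule), at least 2 UMIs of Slc17a7, and at most 3 UMIs of Gad1 and Gad2 together. Slc17a7 encodes a vesicular glutamate transporter and the Gad genes encode the enzymes that make GABA. In the 3844 gated nuclei of both libraries, Rorb, Kcnh5, Rspo1, Ankfn1 and Col26a1 were each scaled to a z-score of the log value per 10000 UMIs, and nuclei with a mean z of at least 1.0 were the members. This gave 162 members among 1741 gated and 6745 deposited nuclei of the vehicle library, and 175 members among 2103 gated and 6173 deposited nuclei of the OLE library. The nuclei came from male APP/PS1 mice, which carry amyloid-forming transgenes, and each library was a pool of the entorhinal cortex of 5 mice. The OLE group was treated with C18:1-Leu (N-oleoyl-leucine, OLE) at a daily dose of 25 mg/kg, and the vehicle group with DMSO. Treatment was given in alkaline water to drink, starting at 15 and ending at 18 months of age, and no wild-type or untreated library was analysed here. The promoter of the transgenes was not given in the sources used here. With 1 library per group, no test between the groups was run, and the mice within a pool cannot be told apart.

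In the neocortex, Rorb encodes a nuclear receptor of the retinoic acid receptor-related orphan family (ROR) that marks the excitatory neurons of the middle layers, above all those of layer 4, which take up thalamic input in sensory areas. Rspo1 encodes a secreted R-spondin, which strengthens Wnt signalling by keeping Frizzled receptors at the cell surface through LGR receptors and the ligases ZNRF3 and RNF43. The entorhinal cortex lies between neocortex and hippocampus, and a cell-poor band takes the place of a granular layer 4 in much of it.

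The members summed to 3678537 UMIs (vehicle) and 3545548 UMIs (OLE). The median member had 21972 and 19181 UMIs, against 22171 and 17930.5 UMIs in the other gated nuclei, so that members and other gated nuclei of a library were sequenced to a similar depth. The median over all deposited nuclei was 3989 UMIs (vehicle) and 6392 UMIs (OLE), and 25.8% and 34.1% of them passed the gate. The libraries shared 14 barcodes, none of which was a member. Levels below are in CPM, the UMIs of a gene per 1000000 UMIs of the same set of nuclei. Intervals are 95% intervals for counting error only, and variation from nucleus to nucleus, from mouse to mouse or between preparations is not in them.

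The score that chose the members ranged from 1.01 to 3.67 (median 1.75) in the vehicle and from 1.02 to 3.97 (median 1.62) in the OLE library. The highest score outside was 0.992 and 0.999, so no gap separated members from the rest. Just outside the limit, 34 vehicle and 52 OLE nuclei scored from 0.75 to 1.0, and just inside it 25 and 30 nuclei scored less than 0.25 above it. Rorb stood at 514 and 508 CPM just outside and at 536 and 525 just inside in the vehicle and the OLE library. All 5 genes had a UMI in 68 members, 4 genes in 155, 3 genes in 109 and 2 genes in 5. Under rules of the same kind for 7 other groups of glutamatergic nuclei, 21 vehicle and 17 OLE members also qualified for at least 1 of them.

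The genes of the rule are given as a description of what it selected. Rorb (chromosome 19, 18930605 to 19111196, minus strand) was at 1089 CPM in vehicle and 1008 in OLE members. In the other gated nuclei Rorb was at 79.8 and 84.3, and in GABAergic nuclei (same depth, more than 3 Gad UMIs and fewer than 2 Slc17a7 UMIs) at 13.4 and 16.3. Both libraries thus had the same order, with members far above the rest. A Rorb UMI was found in 93.2% of vehicle and 92.6% of OLE members, in 28.5% and 33.0% of the other gated nuclei and in 14.4% and 16.6% of GABAergic nuclei, whose median depth was 19780 and 16812 UMIs. With every nucleus thinned to 6000 UMIs, the shares were 90.1% and 87.4% in members and 6.12% and 7.06% in GABAergic nuclei.

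Rspo1 (chromosome 4, 124986430 to 125009099, plus strand) had the lowest level of the genes of the rule, at 57.1 CPM in vehicle and 67.7 in OLE members against 1.91 and 3.37 in the other gated nuclei. Kcnh5, which encodes a voltage-gated potassium channel of the ether-a-go-go family, was at 729 and 667 against 103 and 85.1. Ankfn1 was at 165 and 121 against 9.93 and 12.9. Col26a1, a collagen gene, was at 171 and 175 against 13.1 and 12.1. Outside the members the genes differed in where they were next highest. Ankfn1 was next highest in nuclei rich in Otof and Smoc2 among vehicle nuclei (39.2) and in GABAergic nuclei among OLE nuclei (58.9). Col26a1 was next highest in GABAergic nuclei of both libraries, at 77.3 and 87.5.

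**Figure D1:**
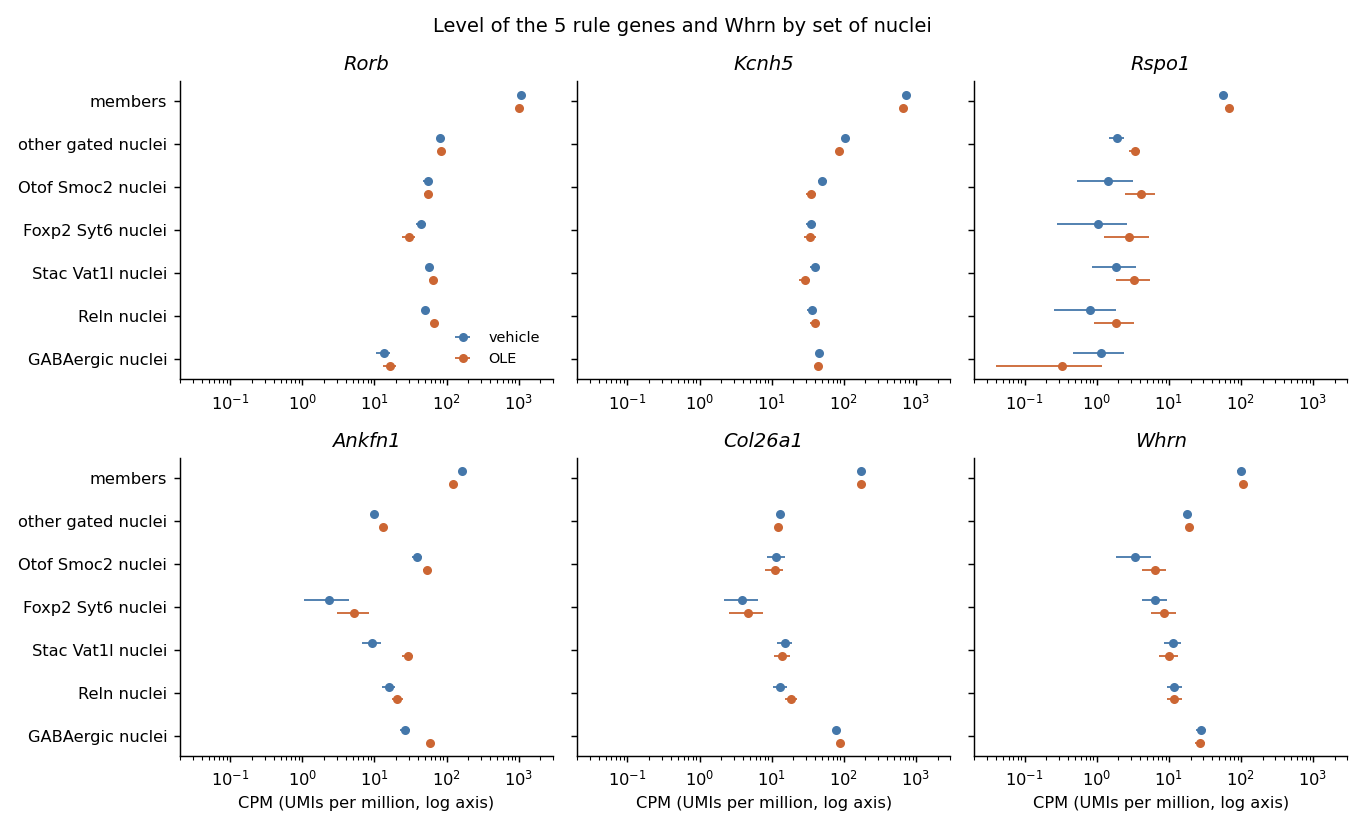
CPM (UMIs per 1000000, log axis) of the 5 genes of the rule and of Whrn in members, in other gated nuclei, in 4 groups of these chosen by other genes and in GABAergic nuclei, with 1 point per library and 95% counting intervals. Members were the highest set for all 6 genes in both libraries, with Rorb at 1089 in vehicle and 1008 in OLE members.

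The name of a mid-layer nucleus was checked against markers of the cortical layers. The members were rich in most layer 4 genes and poor in genes of the deep layers and of layer 2 stellate cells. Against the other gated nuclei, a gene was called where its log2 ratio was at least 1, or at most -1, in both libraries. Of the 7 layer 4 markers, 6 were called higher and 1 lower, where 1.44% of all 12647 genes tested were called higher (182 genes) and 4.48% lower (566 genes). The rule had used this contrast, and 3 of the 6 (Rorb, Rspo1 and Kcnh5) were genes of the rule, so nothing is read from the count. The other 3 called higher were Whrn, Scnn1a and Cux1. Whrn encodes whirlin, a scaffold protein, and was at 99.0 and 106 CPM in members against 18.1 and 19.1 in the other gated nuclei (log2 ratio 2.45 in vehicle and 2.47 in OLE). Scnn1a, a sodium channel subunit used to mark layer 4 neurons, had 39 and 48 UMIs in members and log2 ratios of 1.94 and 2.37. Cux1, a homeobox gene of the upper layers, had log2 ratios of 1.15 and 1.15. Il1rapl2 went against the label, with log2 ratios of -1.74 and -1.45.

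Genes of other layers mostly lay at or below the level of the other gated nuclei. Of the 7 layer 2/3 markers, Otof (-2.62 in vehicle and -3.65 in OLE) and Wfs1 (-1.84 and -2.18) were called lower, while Cux2, shared by layers 2 to 4, was higher without passing in both libraries (0.97 and 1.21). Reln, the extracellular matrix gene that marks entorhinal layer 2 stellate cells, was called lower, at 43.0 and 12.1 CPM against 145 and 114. For layer 5, Fezf2 (-3.12 and -1.67) and Etv1 (-1.08 and -1.38) were called lower among the 5 intratelencephalic markers, and Bcl11b and Npr3 among the 6 markers of extratelencephalic neurons. Of the 6 layer 6 corticothalamic markers, 4 were called lower: Foxp2 (-3.32 and -2.04), Syt6, Tle4 and Ntsr1. Layer 6b and layer 6 intratelencephalic markers summed to between 6.25 and 11.7 CPM in members, against 50.5 to 69.2 in the other gated nuclei. Rorb was fixed by the rule and says nothing of the label. Among genes the rule did not name, Whrn, Scnn1a, Cux1 and the low deep-layer genes went with the label and Il1rapl2 did not. Whrn and Scnn1a were also present in 25 members, described below, for which the label is not used, so these 2 genes alone do not settle it.

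**Figure D2:**
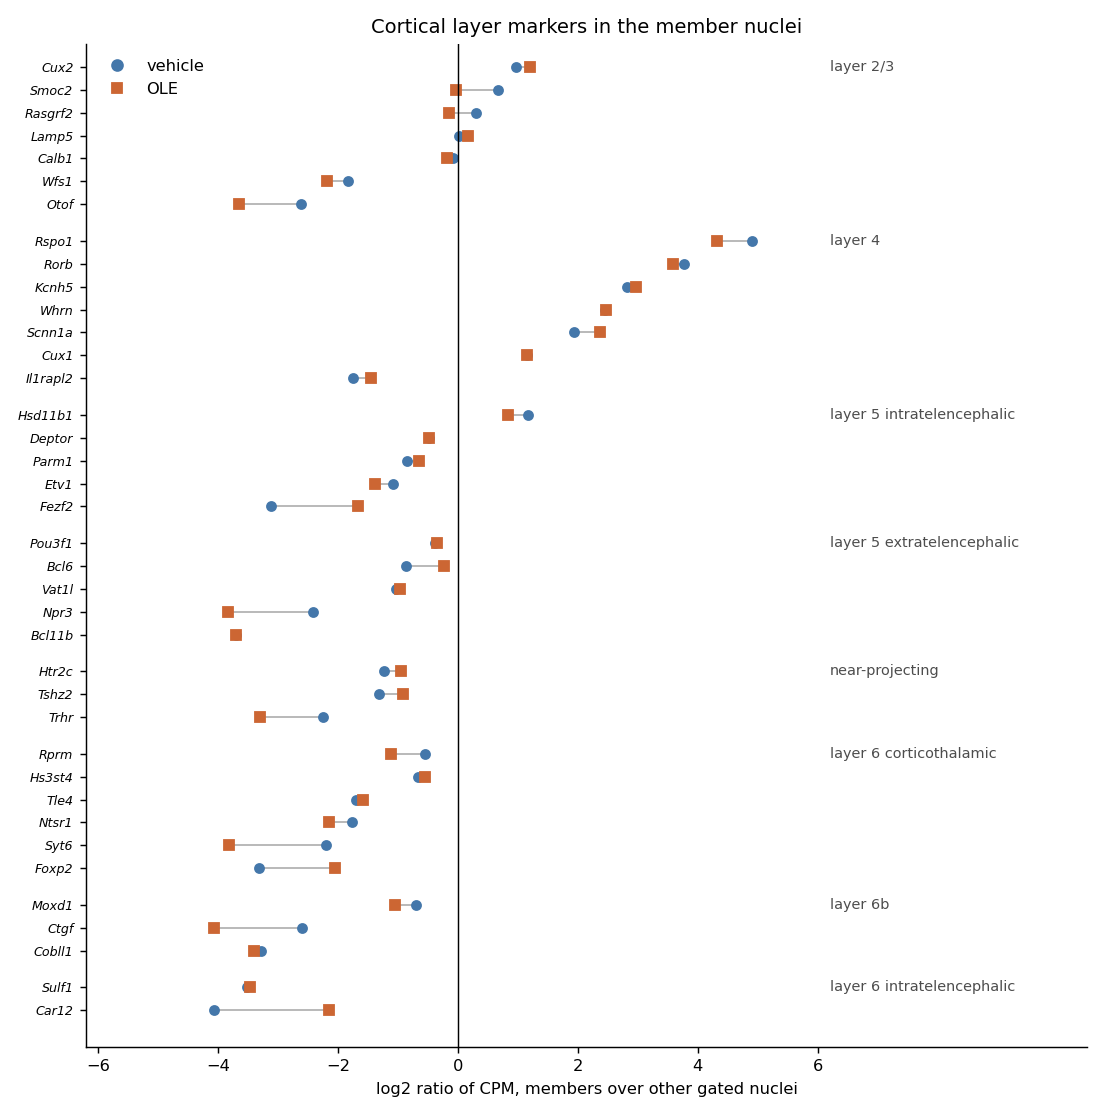
Log2 ratio of members over other gated nuclei for single layer markers, grouped by layer, with circles for the vehicle and squares for the OLE library; genes under 200 UMIs, or with 0 UMIs in a library, are not drawn. Layer 4 genes lie to the right, except Il1rapl2 at -1.74 and -1.45, and most genes of layers 5 and 6 lie to the left of 0.

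The tissue and the cell class were checked in the same way. The 10 glutamatergic markers summed to 2170 and 2420 CPM in members and to 361 and 420 in GABAergic nuclei. The 10 GABAergic markers summed to 93.2 and 168 in members, against 9381 and 8537 in GABAergic nuclei, and Lhx6 had 0 UMIs in vehicle members, which allows up to 3. The 5 endothelial markers had 7 and 9 UMIs in all. The 5 dentate granule markers, a check on hippocampal tissue, summed to 9.24 and 6.49 CPM, and Dsp and Tdo2 had 0 UMIs in the members of both libraries.

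Outside the genes of the rule, the genes with the highest ratio in members over other gated nuclei in both libraries included a sterol enzyme gene, cell surface genes and several long noncoding RNAs. Cyp39a1, an oxysterol hydroxylase, had log2 ratios of 3.95 in vehicle and 3.92 in OLE nuclei, from 57 and 62 UMIs in members. It was also present in oligodendrocyte nuclei, at 17.3 and 22.3 CPM beside 15.5 and 17.5 in members. The lincRNA Gm20752 (3.68 and 3.82) was at 45.1 and 72.2 CPM in members and at 1.15 and 1.48 in GABAergic nuclei. Thsd7a, a thrombospondin-repeat membrane protein gene, was at 570 and 519 in members (3.05 and 2.65) but also at 590 and 623 in GABAergic nuclei. The noncoding genes Gm29674, 1700047F07Rik, Gm46392, 2600014E21Rik and 4930467D21Rik completed the group, with log2 ratios between 2.55 and 3.73. Gm12930, an antisense gene (chromosome 4, 124957647 to 124987009, minus strand) that overlaps the start of Rspo1, had ratios of 3.10 and 3.26. Whether the counting used strand was not given in the sources used here, so UMIs of Gm12930 and Rspo1 in the overlap are uncertain.

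The genes with the lowest ratios included those of deep-layer identity and of the extracellular matrix. Bcl11b, a zinc finger transcription factor of subcortically projecting neurons, was at 7.61 and 8.18 CPM in members against 99.0 and 107 in the other gated nuclei (-3.70 and -3.71). Adamts2, a procollagen protease gene, had log2 ratios of -4.58 and -3.82, from 6 and 9 UMIs in members. Sulf1, an endosulfatase that trims heparan sulfate, had ratios of -3.52 and -3.46. The other 7 lowest genes were Angpt1, Cobll1, St3gal1, Mdga1, Gm32647, Sdk2 and Col6a1, of which Gm32647 had the most UMIs in members (71 and 87) and St3gal1 (4 and 11) and Mdga1 (6 and 9) the fewest in total.

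The lists written for the pathways of the rule genes showed which relatives shared their pattern. Over all 12647 genes tested in this contrast, 1.44% were called higher and 4.48% lower. In the potassium channel family of Kcnh5, Kcnh1 was also called higher, at 537 and 556 CPM in members (log2 ratios 1.41 and 1.60). The other 5 tested members of that family were not called, and the most abundant of them, Kcnh7, had ratios of 0.64 and 0.68. Rora, the second ROR gene, was called higher at 3169 and 3187 CPM (1.27 and 1.50), and no clock gene of the same list of 16 was called. Among 27 tested R-spondin and Wnt genes, Wnt9a, a Wnt ligand, was called higher (1.96 and 1.88) beside Rspo1. Rspo2, the related ligand, was called lower, at 16.9 and 12.4 CPM (-2.71 and -3.20), and so were Lef1, Tcf7l1, Wnt7b and Dkk2, each with 23 UMIs or fewer per library. The LGR receptor gene Lgr4 had ratios of 0.19 and 0.00, and the ligase gene Znrf3 0.49 and 0.43. The 300 bases around the gene start were on hand for 11 of the 15 highest genes, and none held the letters AGGTCA, the ROR half-site, on either strand, against 14.4% of the 9516 tested genes with such a window.

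Receptor genes of the members were mostly lower than in the other gated nuclei where they differed. For scale, 4.48% of all 12647 genes tested in this contrast were called lower and 1.44% higher. Grik1, a kainate receptor subunit, was called higher, at 395 CPM in both libraries (1.99 and 2.24). Of the 23 glutamate receptor genes tested, 6 were called lower, among them the AMPA subunits Gria1 and Gria3, the kainate subunits Grik3 (-3.21 and -2.98) and Grik4, and the metabotropic receptor Grm8 (-2.20 and -2.60). Of the 19 immediate early genes tested, which are switched on by neuronal activity, 3 were called higher and 2 lower. Those higher were Egr1 (1.67 and 1.61), Arc (1.66 and 2.16) and Fos (1.01 and 1.56). No gene of the lists for the ER, for chaperones, for the respiratory chain or of the mitochondrial genome was called in either direction in this contrast.

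The members did not form 1 uniform set when all gated nuclei were clustered without the genes of the rule. The clustering gave 25 clusters, and cluster 2 held 256 of the members (76.0%), 126 from the vehicle and 130 from the OLE library, which were 84.2% of its 304 nuclei. The next cluster in order, cluster 19, held 25 members, 13 and 12. It was led by Gckr, Pygm, Arhgap45, Abi3, Scml2, Ttll10, Csf3r, Runx1, Ikzf1 and Fli1. Microglia markers summed to 82.8 and 57.3 CPM in its members, against 48.8 and 53.0 in those of cluster 2. Its members had a median of 32308 UMIs, against 19800 in those of cluster 2. These 25 were rich in Tshz2, a zinc finger gene of near-projecting deep-layer neurons, at 2313 and 3189 CPM against 99.1 and 76.4 in the members of cluster 2. Their Rorb was at 123 and 7.48 CPM against 1318 and 1210. They qualified through Rspo1 (103 and 110), Col26a1 (179 and 219) and Kcnh5 (651 and 426), while Ankfn1 had 0 UMIs in the vehicle ones and 7 in the OLE ones. Etv1 was at 219 CPM in both libraries, against 10.4 and 6.23 in cluster 2. Cux1 was at 139 and 140 CPM in them, against 435 and 432. Whrn (80.5 and 107 CPM against 112 and 118) was not far below cluster 2 and Scnn1a (22.4 and 29.9 against 8.94 and 12.1) was above it. Whrn and Scnn1a therefore do not tell the members of cluster 2 from these 25. Because their Rorb and Cux1 were low and their Tshz2 and Etv1 high, the mid-layer name is not used for these 25 nuclei, which are called here by their Tshz2 level alone.

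Smaller sets of members lay in other clusters, some of them led by genes known from other cells. Cluster 18 held 10 members, 3 vehicle and 7 OLE, and was led by Ccdc190, Acsbg1, Gm35552, Afap1l2 and Gli3. Its members had Rorb at 928 and 1209 CPM together with astrocyte markers summing to 3229 and 5876, against 829 and 860 in cluster 2 members. Cluster 0 held 10 members, 2 vehicle and 8 OLE, whose median was 6997 UMIs per nucleus. Its leading genes Vip, Sst, Spp1, Mgp and Npy are known from interneurons and from vascular and glial cells. Cluster 1 held 13 members, 7 and 6, and the remaining 23, 11 and 12, were spread over 7 clusters. The 7 layer 4 markers, 3 of which are genes of the rule, summed to 2892 and 2813 CPM in the members of cluster 2, to 2263 and 1806 in those of cluster 1 and to 2764 and 2285 in those of cluster 18. The 256 members of cluster 2 are by far the largest set, and values for them alone are given beside the results below.

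**Figure D3:**
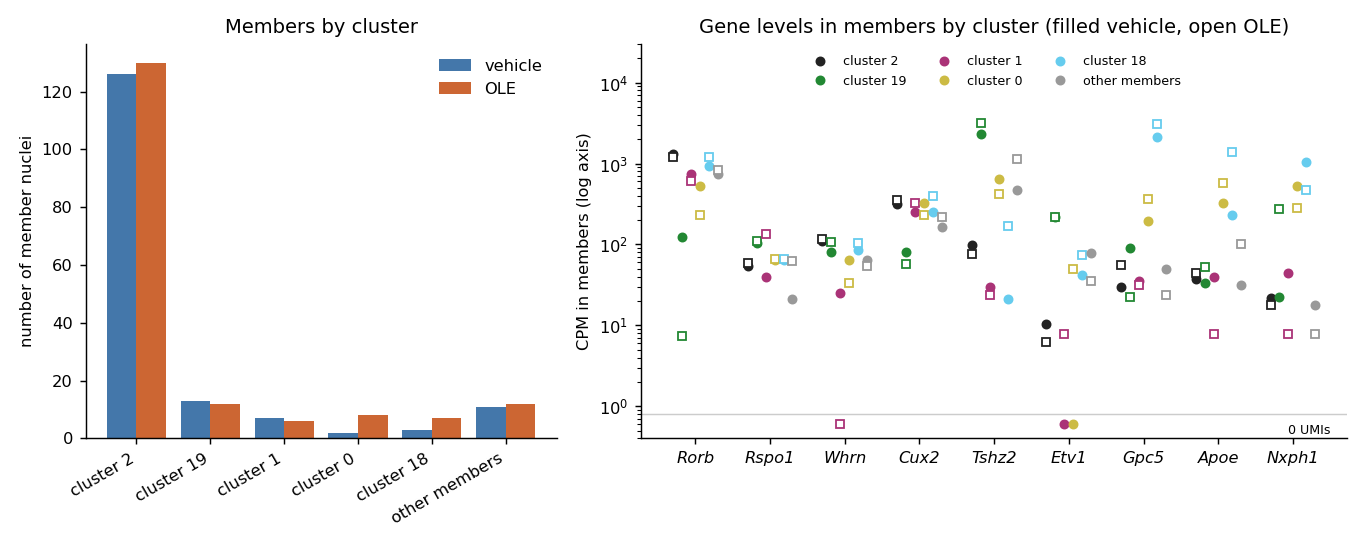
Members by cluster of the gated nuclei, as numbers per library (bars), and CPM on a log axis of selected genes in the members of each cluster, with filled points for vehicle and open points for OLE and with 0 UMIs drawn under the line. Cluster 2 holds 256 of 337 members, and the 25 members of cluster 19 have the most Tshz2 (2313 and 3189) and the least Rorb (123 and 7.48).

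The members made up 9.31% of the gated nuclei in the vehicle library (95% interval 7.98% to 10.8%) and 8.32% in the OLE library (7.18% to 9.58%). OLE minus vehicle was -0.984 percentage points (-2.84 to 0.846). As a share of all deposited nuclei the order was the other way round, 2.40% and 2.83%, with a difference of 0.433 percentage points (-0.128 to 1.00). A difference in the number of these nuclei was not detectable at this depth, and the sign depended on the denominator, since more OLE nuclei passed the gate.

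The difference between the OLE and the vehicle library within the members was then described from the summed UMIs. With 1 library per group, treatment cannot be told apart from library or preparation. Scg2, some immediate early genes and some genes of ER protein folding were higher in OLE members, while Reln, Col25a1 and the transporter genes Slc44a5 and Slc30a7 were lower. A gene was called where its log2 ratio of OLE over vehicle was at least 0.5, or at most -0.5, and its interval left out 0, among 4965 genes with at least 200 UMIs over the members. Of these, 169 rose (3.40%) and 25 fell (0.504%), with a median of 0.02 over all 4965. With every nucleus thinned to 6000 UMIs, 81 genes fell, of which 12 were among the 25. Among the same genes in the other gated nuclei, 119 rose (2.40%) and 0 fell (0.00%), and among all 12454 genes tested there, 7.49% rose and 0.201% fell. The members hold fewer UMIs than the other gated nuclei, so the counts of calls cannot be compared, and 155 of the 169 genes were also above 0 in the other gated nuclei, where 77 were called. Of the 25 that fell, 16 were also below 0 and none was called there. Over all 4965 genes, 3266 had the same sign in both sets, a share close to that of the 16 of 25. The make-up of the other gated nuclei also differed between the libraries. Cluster 0 of the gated nuclei held 85 vehicle and 344 OLE nuclei, 10 of them members, and cluster 24 held 0 and 31. The part of this in the ratios of the other gated nuclei was not tested.

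The calls moved with gene length and, for some genes, with RNA of other cells. The median log2 ratio was 0.23 over 264 genes under 10 kb and -0.06 over 464 genes longer than 300 kb, and in the other gated nuclei 0.25 and -0.06. The median length was 20.8 kb for the 169 genes that rose and 120.5 kb for the 25 that fell, against 62.7 kb over all. Astrocyte markers summed to 791 CPM in vehicle and 976 in OLE members (log2 ratio 0.30, interval 0.23 to 0.38), and 2 of the 10 GABAergic markers had enough UMIs to be tested and both were called higher. Of the 169 genes, 163 were also above 0 in the 256 members of cluster 2 and 132 met the same call there. Of the 25, all were below 0 and 17 met the call. In the members of cluster 2 the marker sums were closer between the libraries, at 829 and 860 CPM for astrocytes, 63.3 and 78.7 for GABAergic cells and 128 and 134 for oligodendrocytes. The part of gene length and of other cells in these calls was not tested.

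Scg2 had the largest rise of the 4965 genes tested. It encodes secretogranin II, the precursor of neuropeptides stored in dense-core vesicles. Its UMIs numbered 61 in vehicle and 166 in OLE members, or 16.6 and 46.8 CPM (log2 ratio 1.50, 1.07 to 1.95). A UMI was present in 25.9% of vehicle and 48.0% of OLE members, or in 9.88% and 32.0% after thinning to 6000 UMIs. In cluster 2 members the ratio was 1.51 (0.99 to 2.05), and in the other gated nuclei it was 1.06, from 19.7 to 41.2 CPM. The difference between members and other gated nuclei was 0.43, with an interval from -0.01 to 0.88.

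Part of the immediate early genes also rose. Of the 21 genes of the list, 6 had at least 200 UMIs, 4 of the 6 rose (66.7%, against 3.40% of all genes tested) and none fell. Their median was 0.83 against 0.02 over all genes tested and 0.37 for the same 6 in the other gated nuclei. Junb, an AP-1 transcription factor gene, went from 71 to 142 UMIs (log2 ratio 1.05, 0.63 to 1.49). Bdnf, the gene of brain-derived neurotrophic factor, went from 87 to 163 UMIs, 0.96 (0.57 to 1.35). Arc, which encodes a postsynaptic protein that helps to withdraw AMPA receptors, went from 115 to 208 UMIs, 0.91 (0.57 to 1.249). Nr4a1, an orphan nuclear receptor gene, went from 251 to 405 UMIs, 0.74 (0.51 to 0.98). The other 2 did not pass, Egr1 at 0.34 and Homer1 at 0.09. All 21 genes, including those with few UMIs, were above 0 in the members and also in the other gated nuclei.

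These differences were spread over nuclei and were also seen in cluster 2 alone. There the ratio was 1.08 for Junb, 1.09 for Bdnf, 1.04 for Arc and 0.78 for Nr4a1. The sum of the 21 genes had a median of 6.03 UMIs per 10000 in vehicle members (range 0.386 to 26.3) and 7.78 in OLE members (range 0.379 to 47.1). The whole vehicle range thus lay within the OLE range, and the highest OLE member was above every vehicle member. In the other gated nuclei Arc was at a log2 ratio of 0.41, Bdnf at 0.35 and Nr4a1 at 0.31, below the limit of 0.5, while Junb was at 0.82. For Bdnf the difference between members and other gated nuclei was 0.61 (0.22 to 1.01), and for Junb 0.24 (-0.21 to 0.68). The 6 tested genes of the list have a median length of 12.8 kb, within the short classes that lay above 0.

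Genes of ER protein folding held the most calls of any list by number, but not by share. Of 30 genes, 17 had at least 200 UMIs, 8 of the 17 rose (47.1%, against 3.40% of all genes tested) and none fell. The share was 66.7% for the immediate early genes, and both tested GABAergic markers rose. The median of the ER folding genes was 0.29, against 0.34 for the same genes in the other gated nuclei and 0.37 in cluster 2 members. Calr, the calcium-binding chaperone calreticulin, went from 148 to 291 UMIs (log2 ratio 1.03, 0.74 to 1.32). Hspa5, which encodes BiP, the HSP70 chaperone of the ER, went from 113 to 210 UMIs, 0.95 (0.61 to 1.29). Pdia3, a disulfide isomerase gene, went from 121 to 196 UMIs, 0.75 (0.41 to 1.09). The other 5 were Manf (0.73), Hsp90b1 (0.68), Pdia6 (0.60), Dnajc3 (0.52) and Canx (0.51). The sensors of the unfolded protein response were not among them, with Atf6 at 0.01, Ern1 at -0.17 and Eif2ak3 at -0.20. A Calr UMI was found in 55.6% of vehicle and 73.1% of OLE members, and in 25.9% and 34.9% after thinning. In the other gated nuclei Calr was at 0.82 and Hspa5 at 0.79, so both genes were also higher in OLE among the other gated nuclei.

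The promoters of genes that rose are shown because they carry the letters of known control elements, with the matched letters in capitals. The ER stress response element (ERSE), bound by ATF6 with NF-Y, was searched as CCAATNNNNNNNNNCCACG, and the cAMP response element (CRE), bound by CREB, as TGACGTCA, on both strands of the 300 bases from 250 before to 50 after the gene start in RefSeq sequence of GRCm38.p6. The ERSE was in 6 of the 7 ER folding genes that rose and have such a window (Hspa5, Hsp90b1, Calr, Canx, Pdia6 and Dnajc3, but not Pdia3). It was in 8 of 25 of the whole list, where genes under 200 UMIs could not be called, and in 0.147% of the 9516 tested genes. The list was written from general knowledge of ER folding genes, so nothing is read from these counts. Hspa5 is at chr2:34771840-34772139 on the plus strand, Calr at chr8:84846882-84847181 on the minus strand, Hsp90b1, with 2 matches, at chr10:86705395-86705694 on the minus strand, Pdia6 at chr12:17266339-17266638 on the plus strand, and Scg2, with a CRE, at chr1:79439977-79440276 on the minus strand. A match is a description of the letters and does not show binding.
Hspa5: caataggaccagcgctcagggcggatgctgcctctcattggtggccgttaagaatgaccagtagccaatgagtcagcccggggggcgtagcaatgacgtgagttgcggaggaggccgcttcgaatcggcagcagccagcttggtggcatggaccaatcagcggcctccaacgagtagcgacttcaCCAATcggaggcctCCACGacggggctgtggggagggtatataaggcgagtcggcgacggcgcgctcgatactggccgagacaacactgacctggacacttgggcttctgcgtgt
Calr: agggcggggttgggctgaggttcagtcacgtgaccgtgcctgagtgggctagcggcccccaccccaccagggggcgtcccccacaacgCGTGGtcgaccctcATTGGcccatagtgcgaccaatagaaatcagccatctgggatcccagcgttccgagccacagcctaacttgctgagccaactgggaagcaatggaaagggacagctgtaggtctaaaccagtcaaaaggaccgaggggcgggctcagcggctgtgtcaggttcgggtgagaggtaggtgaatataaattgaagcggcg
Hsp90b1: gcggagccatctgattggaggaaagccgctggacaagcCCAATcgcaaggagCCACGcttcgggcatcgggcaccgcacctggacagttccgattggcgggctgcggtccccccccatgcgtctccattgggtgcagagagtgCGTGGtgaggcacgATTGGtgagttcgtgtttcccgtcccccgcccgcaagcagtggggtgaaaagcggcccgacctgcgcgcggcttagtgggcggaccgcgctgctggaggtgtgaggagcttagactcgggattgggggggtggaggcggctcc
Pdia6: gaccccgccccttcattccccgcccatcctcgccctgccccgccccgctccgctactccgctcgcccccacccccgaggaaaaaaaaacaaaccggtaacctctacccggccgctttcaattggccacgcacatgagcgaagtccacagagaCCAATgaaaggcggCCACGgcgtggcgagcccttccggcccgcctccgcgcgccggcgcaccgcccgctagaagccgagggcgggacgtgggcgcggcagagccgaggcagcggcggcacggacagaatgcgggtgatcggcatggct
Scg2: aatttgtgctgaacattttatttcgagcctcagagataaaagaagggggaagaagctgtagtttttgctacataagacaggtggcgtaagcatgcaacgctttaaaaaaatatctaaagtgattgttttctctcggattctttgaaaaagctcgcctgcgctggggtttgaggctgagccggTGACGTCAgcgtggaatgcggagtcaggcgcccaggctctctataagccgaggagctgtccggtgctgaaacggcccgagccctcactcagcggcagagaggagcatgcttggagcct

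The distance from the end of the match to the gene start was 46 bases for Hspa5, 143 for Calr, 79 for Pdia6 and 60 for Scg2. Of the 12 genes with the largest rise, 8 had a window, and the CRE was in 1 of these 8 genes (Scg2). It was in 2 of 16 immediate early genes (Dusp1 and Btg2) and in none of the windows of Junb, Nr4a1 and Bdnf, where 3.71% of the 9516 tested genes hold it. No window was on hand for Arc, Egr1 or Manf.

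The remaining genes with the largest rise included Bsg, Lamp1 and Adam33. Bsg, which encodes basigin, a chaperone of lactate transporters, went from 115 to 227 UMIs (log2 ratio 1.03, 0.70 to 1.37), and was at 0.82 in the other gated nuclei. Lamp1, a lysosomal membrane protein gene, went from 105 to 196 UMIs, 0.95 (0.60 to 1.31), and was at 0.61. Adam33, a membrane metalloprotease gene, went from 72 to 138 UMIs, 0.99 (0.57 to 1.42), against 0.31 in the other gated nuclei, a difference of 0.69 (0.23 to 1.14). In the members of cluster 2 the ratios were 1.12 for Bsg, 0.86 for Lamp1 and 0.91 for Adam33.

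For 4 other genes with the largest rise or the largest difference from the other gated nuclei, a few members carried much of the value. Apoe, the lipoprotein gene of astrocytes and microglia, went from 149 to 381 UMIs (log2 ratio 1.41, 1.13 to 1.69), but 186 of the 381 UMIs lay in the 7 OLE members of cluster 18. In cluster 2 members Apoe was at 0.23 (-0.17 to 0.63). Gpc5, a heparan sulfate proteoglycan gene that is among the astrocyte markers, went from 245 to 597 UMIs, 1.34 (1.12 to 1.56), with 101 and 414 of them in cluster 18. In cluster 2 it was at 0.89 (0.49 to 1.31), from 80 to 142 UMIs, but without the nuclei in the top 5% of Scrublet doublet scores it was at 0.15 and the call was lost. Nxph1, a neurexophilin gene of interneurons, went from 140 to 239 UMIs, with 3 OLE members holding 66.9% of the latter, and was at 0.82 over all members, at -0.13 without the 3 highest nuclei of each library, and at -0.27 in cluster 2. The noncoding gene Gm26883 was at 1.01 over all members and at -0.52 in cluster 2. For Apoe, Nxph1 and Gm26883 the call was therefore not met in cluster 2, and the part of other cells was not tested.

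Reln had the largest fall of the 4965 genes tested. Its UMIs went from 158 in vehicle to 43 in OLE members, a log2 ratio of -1.82 (-2.35 to -1.33), and a UMI was found in 25.3% and 13.1% of members. The 3 highest nuclei held 48.7% of its UMIs in the vehicle and 53.5% in the OLE library. Without them the ratio was -1.96. Under the rule for Reln nuclei, 8 vehicle members and 1 OLE member also qualified, and their part in the fall was not tested. Of the 158 vehicle UMIs, 114 lay in the 11 members outside the clusters named above, and in cluster 2 Reln went from 33 to 14 UMIs, -1.17 (-2.19 to -0.23). In the other gated nuclei it was at -0.34. Reln was thus low in the members of both libraries, at 12.3 and 5.46 CPM in cluster 2 beside 145 and 114 in the other gated nuclei.

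Col25a1, the gene of a neuronal transmembrane collagen whose shed part binds amyloid-beta, fell from 165 to 92 UMIs (log2 ratio -0.79, -1.17 to -0.41). In the other gated nuclei it was at 0.49, from 33.9 to 47.7 CPM. The 2 sets of nuclei had opposite signs, a difference of -1.28 (-1.66 to -0.90). In cluster 2 it went from 143 to 63 UMIs, -1.12 (-1.57 to -0.68). With a score limit of 0.75, which adds the 34 and 52 nuclei just outside, it was at 0.020, and with every nucleus thinned to 6000 UMIs at -0.29, so the fall depends on the choice of members and of depth. Slc44a5, a choline transporter-like gene, fell from 164 to 91 UMIs, -0.80 (-1.18 to -0.42), and Slc30a7, a zinc transporter gene of the Golgi, from 140 to 79 UMIs, -0.77 (-1.19 to -0.36). Both were near 0 in the other gated nuclei, at 0.01 and -0.06. Ntn4, the gene of the laminin-like netrin 4, is itself high in the members (48.7 and 32.4 CPM against 8.95 and 10.1) and fell with a ratio of -0.59 (-0.94 to -0.24), or of -0.41 and without a call at a score limit of 0.75. The noncoding RNA Rmst was at -0.73 but at 0.27 with a score limit of 0.75, and Gm32926 (an antisense gene), Cryl1, Prrg1, Mettl25, Uqcc1 and Usp13 were between -0.70 and -0.56. Of these 6, all but Gm32926 lost the call under at least 1 other setting.

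**Figure D4:**
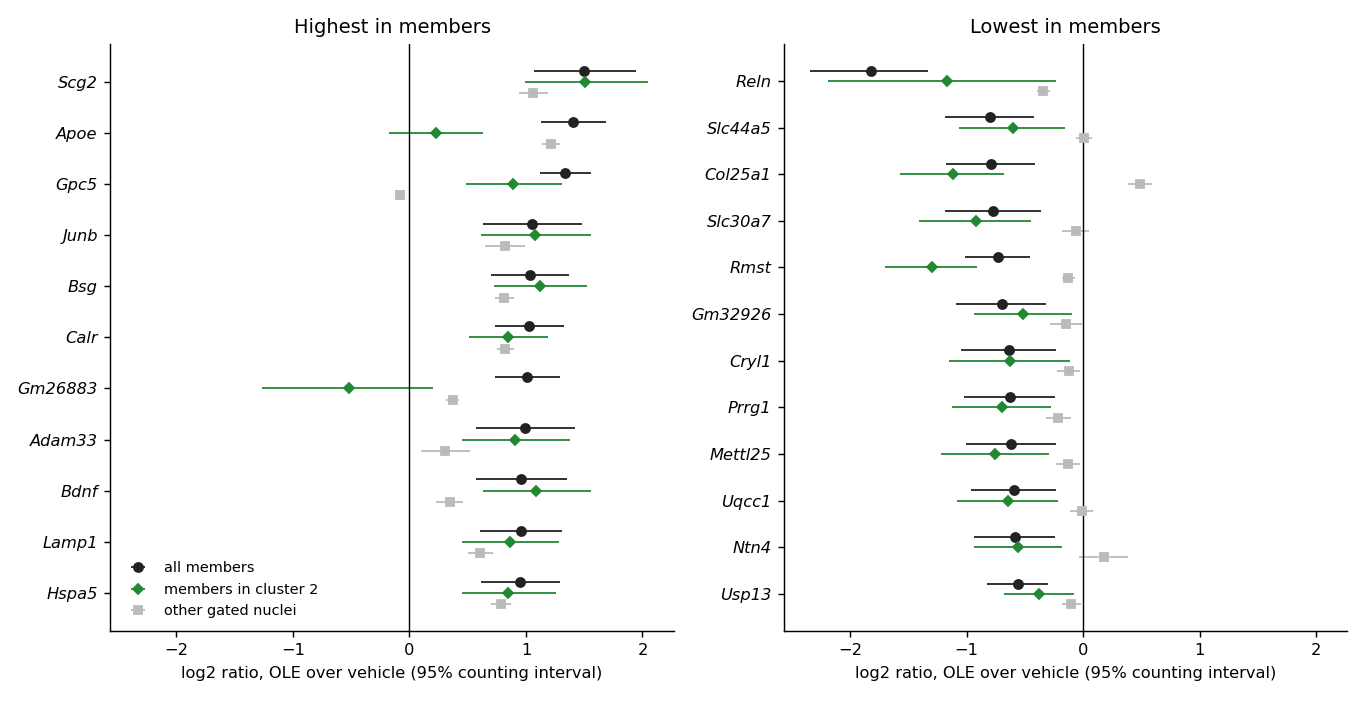
Log2 ratio of OLE over vehicle for 11 of the 12 genes with the largest rise and for the 12 with the largest fall in members, with 95% counting intervals, for all members (black), members in cluster 2 (green) and other gated nuclei (grey). Scg2 (1.50) and Reln (-1.82) are the extremes, and Apoe and Gm26883 lie much lower in cluster 2 than over all members.

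Of the other pathway lists, the pump genes and the amyloid and Alzheimer genes had medians not far below that of ER folding, and the rest were closer to the median of all genes. Over all 4965 genes tested, 3.40% rose and 0.504% fell, and 23.1% rose in both the cytosolic chaperone and the pump list. The synaptic vesicle genes had a median of 0.03 over 27 genes, of which Sv2a and Syt4 rose, both at 0.54, and none fell. The long synaptic adhesion genes had a median of -0.10 over 35 genes, of which Nlgn3, a neuroligin gene, rose at 0.91, and the lowest were Cntn4 at -0.25 and Kirrel3 at -0.19. Among 13 cytosolic chaperone genes (median 0.09), Hspa8 (0.94), Hsp90aa1 (0.67) and Hsph1 (0.60) rose. The 13 sodium and calcium pump genes had a median of 0.22, and 3 of them rose, among them Atp1b1 (0.70), a subunit gene of the sodium pump, which was at 0.67 in cluster 2 members. The 18 voltage-gated potassium channel genes (median 0.01) and 12 GABA receptor genes (-0.02) held no called gene, and the 19 glutamate receptor genes (-0.05) held Grm8, which fell at -0.51.

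Of the genes of the rule, Ankfn1 moved the most, with a log2 ratio of -0.44 (-0.62 to -0.26) in members and 0.38 in the other gated nuclei, and none of the 5 was called. Among the 15 genes highest in members over other gated nuclei, Gm20752 (0.68) and 2600014E21Rik (0.58) rose and 4930467D21Rik (-0.53) fell, and all of these calls were lost under at least 1 other setting. The Kcnh family had a median of -0.05 over 4 genes, the R-spondin and Wnt genes -0.03 over 11 and the ROR and clock genes -0.03 over 9, with no call among them. Whrn, which the rule did not use, was at 0.10 (-0.11 to 0.31). The 9 mitochondrially encoded genes had a median of 0.02 and 13 nuclear-encoded respiratory chain genes 0.08, without a call. Of 17 amyloid and Alzheimer genes (median 0.26), 23.5% rose, against 3.40% of all genes tested. Those that rose were Apoe, Cst3 (0.80), Itm2c (0.67) and Itm2b (0.60). The last 3 encode a cysteine protease inhibitor and a pair of BRI proteins. In cluster 2 members they were at 0.70, 0.68 and 0.61. App was at 596 and 697 CPM, 0.23 (0.14 to 0.31), and UMIs of the transgene and of the mouse gene cannot be told apart in it.

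**Figure D5:**
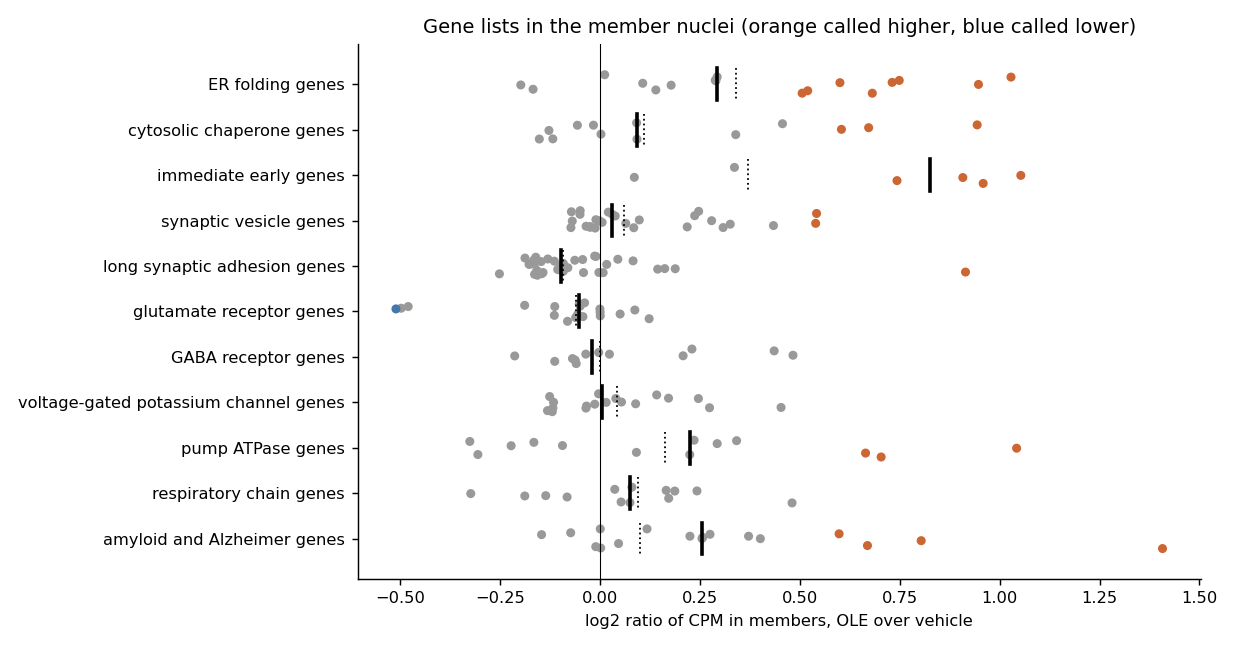
Log2 ratio of OLE over vehicle in members for each gene with at least 200 UMIs in 11 gene lists (points), with the median in members (solid bar) and in other gated nuclei (dotted bar). The immediate early genes (median 0.83 in members and 0.37 in other gated nuclei) and the ER folding genes (0.29 and 0.34) lie above 0, and the long synaptic adhesion genes lie slightly below it (-0.10).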

How the data were processed

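Nuclei of pooled entorhinal cortex were sequenced with 10X 3′ v3 chemistry in 2 libraries, 1 per group. Per the labels, reads were aligned to mm10 with Cell Ranger 3.0.1, and the study's methods add that a pre-mRNA reference was used and that doublets were removed in Seurat 4.0.4, without naming the caller. The authors deposited raw whole-number UMI counts for 31053 genes in each nucleus, without normalization, and the files hold 0 columns of other samples. The libraries totalled 70845739 (vehicle) and 69485537 (OLE) UMIs.

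The members, the lists and the comparisons were chosen with earlier results of these data known. UMIs were summed over the nuclei of a set in each library and scaled to 1000000 UMIs of the set (CPM). Log2 ratios have no pseudocount, and genes needed at least 200 UMIs over the nuclei compared. Levels have exact Poisson intervals, shares and ratios have exact binomial (Clopper-Pearson) intervals, those of share differences combine the exact limits of both shares, and those of differences between log2 ratios add Poisson variances. They cover counting error only, and precision is set by the UMIs of the members. With 1 library per group no p-value was computed, and nuclei were not treated as replicates.

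Genes named are the 5 of the rule, the 15 highest (with a UMI in at least 20% of members of each library) and 10 lowest over other gated nuclei by their less extreme library (for the lowest, with a UMI in at least 20% of the other gated nuclei of each library), the 12 highest and 12 lowest OLE over vehicle, the 5 highest and 5 lowest differences from other gated nuclei, and the 3 highest and 3 lowest of each list, or all of lists of up to 10. List genes named beyond these, called genes of a list above all, were chosen after their values were seen. Some genes that the rule names are not reported here. Marker and gene lists were written from general knowledge.

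Scrublet marked 0.119% and 0.113% of nuclei at its automatic threshold, which counts as not working unless doublets were removed before deposit, so leaving out the top 5% of scores was an alternative. Gated nuclei were clustered without the 5 genes by the Leiden method (2000 variable genes, 30 principal components, 20 neighbours, resolution 0.6). GABAergic nuclei and oligodendrocyte nuclei (1% or more of UMIs from 5 myelin genes, Mbp and Mog among them) served as background. Gene positions are from GENCODE vM21 on GRCm38, and promoter windows of 27025 genes from RefSeq on GRCm38.p6, both the assembly of mm10. The ratio calculation was tested on simulated Poisson counts of the summed UMIs, without variation between nuclei. Alternatives were other score limits, a gate at 10000 UMIs, z-scores within libraries, thinning to 6000 UMIs, equal weight per nucleus, scaling by the median ratio, UMI minimums of 100 and 500, and, added after seeing the data, only the members of cluster 2. Tools were Python 3.11.15, numpy 2.4.6, scipy 1.17.1, pandas 2.3.3, scanpy 1.11.5 and matplotlib 3.10.9.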

Additional observations from a re-analysis of the deposited data

Results flagged for a closer look

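Among the named genes outside the rule, 6 had OLE over vehicle log2 ratios of opposite sign in the members and in the other gated nuclei. Both intervals left out 0 for each of them. All but Thsd7a were among the 5 highest or 5 lowest differences from the other gated nuclei, and Thsd7a was named for its level in members. Their opposite signs thus follow in part from how they were chosen, and nothing is read from the count. Of the genes of the rule, Ankfn1 and Rorb also met this, and genes that are not named were not searched. With 1 library per group the difference was not tested, and the values are descriptions of these libraries. The log2 ratio in members minus that in the other gated nuclei was 1.42 for Gpc5 (1.34 and -0.08), 1.01 for Nxph1 (0.82 and -0.19) and 0.97 for Kctd8 (0.82 and -0.16). It was -1.28 for Col25a1 (-0.79 and 0.49), -0.98 for the noncoding gene 4930467D21Rik (-0.53 and 0.46) and -0.40 for Thsd7a (-0.13 and 0.26).

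In the members of cluster 2 alone, Col25a1 was at -1.12, 4930467D21Rik at -0.49, Thsd7a at -0.27 and Gpc5 at 0.89, each with an interval that left out 0. Without the top 5% of Scrublet scores Gpc5 was at 0.15, and at a score limit of 0.75 Col25a1 was at 0.020. Kctd8 was there at 0.57 (-0.19 to 1.36), from 26 and 37 UMIs. Nxph1 was there at -0.27, and 3 OLE members held 66.9% of its UMIs. The 3 highest vehicle members held 54.7% of the UMIs of Kctd8, which encodes an auxiliary subunit of GABA-B receptors, and the 3 highest OLE members 44.5%.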

How the results depend on the processing

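The share difference, the 4 counts of called genes and the 4 list medians had 95 values under alternatives, of which 89 stayed within the limits set for an unchanged result. The number of genes that rose in OLE members was 169, and it was 388 with a minimum of 100 UMIs, 28 with 500 UMIs, and 102 in cluster 2 members alone, 76 of them shared with the 169 and fewer genes being tested (3897). The number that fell was 25, and it was 79 with a minimum of 100 UMIs, 5 with 500 UMIs, and 81 with every nucleus thinned to 6000 UMIs, of which 12 were shared. The share difference ranged from -1.28 to 0.433 percentage points, positive with a gate at 10000 UMIs (0.036) and over all deposited nuclei. The median of the cytosolic chaperone genes lay between -0.02 and 0.19, that of the ER folding genes between 0.23 and 0.51.

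Of 583 values of 53 named genes under 11 settings, 536 were unchanged in call and direction, 32 lost and 9 gained the call, and 6 changed sign. Counted by gene, 29 of the 53 kept the same call in every setting. The 53 include genes that had no OLE call to lose. At a score limit of 0.75, Col25a1 was at 0.020, Rmst at 0.27 and Nxph1 at -0.027. Without the top 5% of Scrublet scores Nxph1 was at -0.011, and Gpc5 (0.15) lost the call. In cluster 2 members Nxph1 was at -0.27 and Gm26883 at -0.52. The cause was not tested. No paired analysis was possible because each group has 1 library, and no library could be left out. Genes under 200 UMIs in the members are beyond what this depth describes.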

Other observations

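A group of gated nuclei without members was found in the OLE library alone. Cluster 24 held 31 OLE and 0 vehicle nuclei and was led by genes that included Prox1, Dsp and C1ql2, known from dentate granule cells. Zbtb20, a transcription factor gene of the hippocampus, had a log2 ratio of OLE over vehicle of 1.28 in the other gated nuclei and of 0.32 in the members, a difference of -0.96 (-1.17 to -0.74). The part of these 31 nuclei in that ratio was not tested.

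Among noncoding genes that are high in the members, 2600014E21Rik rose with a log2 ratio of 0.58 (0.28 to 0.88) and was at -0.15 in the other gated nuclei. In cluster 2 members it was at 0.59 (0.27 to 0.91). After every nucleus was thinned to 6000 UMIs it was at 0.10 and no longer met the call.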
